A study of Rattus norvegicus with 4 samples.

Results

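Activins, inhibins and follistatins are secreted proteins of one signalling system, and 10 of its genes were followed across cultures of neonatal rat cardiomyocytes. These were the subunit genes Inha, Inhba and Inhbb, the follistatin genes Fst, Fstl3 and Fstl1, the related ligand gene Mstn, and the receptor genes Acvr2a, Acvr2b and Acvr1b. The 10 genes, out of 15731 listed, were taken by symbol and each was listed once. They were chosen from measured values of the same libraries, in which Inha and Fstl3 had some of the highest ratios to the control, so the values below are a description with no test. Ventricular cardiomyocytes of wild type Wistar rats at postnatal day 1 were enriched by a preplating step and held in primary culture with serum. One day after plating, the cultures received, by lipid transfection, a mimic of hsa-miR-25-3p, of hsa-miR-93-5p or of hsa-miR-106b-5p, the members of one microRNA cluster, or of cel-miR-67, a nematode microRNA that served as control. RNA harvested 72 h later was sequenced to compare each mimic against cel-miR-67, with 1 library for each of the 4 mimics. The final mimic concentration is 25 nM in one protocol text and 25 mM in another, and the number of animals behind a dish is not given in the sources used here.

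Activins are dimers of beta subunits, encoded by Inhba and Inhbb, and they signal through a type II receptor (Acvr2a or Acvr2b) and a type I receptor (Acvr1b) to Smad2 and Smad3. When the alpha subunit encoded by Inha joins a beta subunit, the dimer is an inhibin, which occupies type II receptors without signalling and is best known as a gonadal hormone that lowers FSH. Follistatin and its relative Fstl3 bind activins and myostatin outside the cell and keep them from the receptors. In heart muscle, activins and myostatin are known for effects on growth and wasting.

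The sequences of the mature microRNAs are shown because miR-25 differs from the other two in the seed, the stretch at bases 2 to 8 that pairs with target transcripts. The rat forms are given from RefSeq (GRCr8, minus strand), with the seed in capitals.
rno-miR-106b-5p (chr12:22157103-22157123): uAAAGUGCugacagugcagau
rno-miR-93-5p (chr12:22156894-22156916): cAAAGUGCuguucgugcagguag
rno-miR-25-3p (chr12:22156652-22156673): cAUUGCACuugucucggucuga
The seed AAAGUGC is shared by miR-106b and miR-93, and miR-25 has the seed AUUGCAC. The cultures received the human forms, whose sequences were not read here.

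Levels are given as RPKM, read numbers scaled to the length of the exon model and to the size of the library, so they can be set side by side between genes. The libraries had between 15175185 and 18797234 reads on listed genes. The cardiomyocyte marker Tnnt2 lay between 1750 and 2433 RPKM in all 4 libraries, while the RPKM summed over the 5 listed endothelial markers lay between 3.68 and 4.89 and over the 5 macrophage markers between 5.08 and 9.13. Of these, the endothelial markers Cdh5, Vwf and Emcn and the leukocyte marker Ptprc were under 1.0 RPKM in all 4 libraries, and Kdr, Tek, Csf1r and Cd14 were above it. The RPKM summed over the 8 listed cardiomyocyte markers was 17612 after miR-106b, 13037 after miR-93, 11605 after miR-25 and 19547 after cel-miR-67, and over the 9 fibroblast markers it was 653, 759, 333 and 837 in the same order. The RPKM summed over the 6 smooth muscle and pericyte markers was 698, 597, 2071 and 757 in that order. After miR-25, 8 of 8 cardiomyocyte markers were past 1.3-fold lower and 6 of 6 smooth muscle and pericyte markers past 1.3-fold higher. Among the cardiomyocyte markers, Tnni3 had 543, 495, 15.9 and 351 RPKM after miR-106b, miR-93, miR-25 and cel-miR-67. Fewer cells of a type and less RNA per cell cannot be told apart in these libraries.

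In the control library, Fstl1 was the most abundant of the 10 transcripts, followed by Inhba, Acvr2a, Fstl3, Inha, Acvr1b and Fst, and then by Inhbb, Acvr2b and Mstn, each under 1.0 RPKM. Their levels after cel-miR-67 ran from 215 RPKM for Fstl1 and 17.9 RPKM for Inhba down to 0.0505 RPKM for Mstn. Of the neighbours in this order, Fstl3 and Inha did not differ beyond counting error (ratio of levels 1.04, 95% exact interval 0.903 to 1.19), nor did Acvr1b and Fst (1.21, 0.997 to 1.47). Fstl1 stayed first in all 4 libraries, and Inha stood second with each of the 3 mimics. After miR-25 the second place was narrow, with Inha at 1.06 times the level of Fstl3 (95% exact interval 1.001 to 1.113). After miR-106b, Fstl3 and Inhba did not differ beyond counting error, and the same was true of Inhba and Fstl3 after miR-93 and of Acvr2a and Inhba after miR-25. Acvr2b and Inhbb did not differ beyond counting error with any of the 3 mimics.

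**Figure D1:**
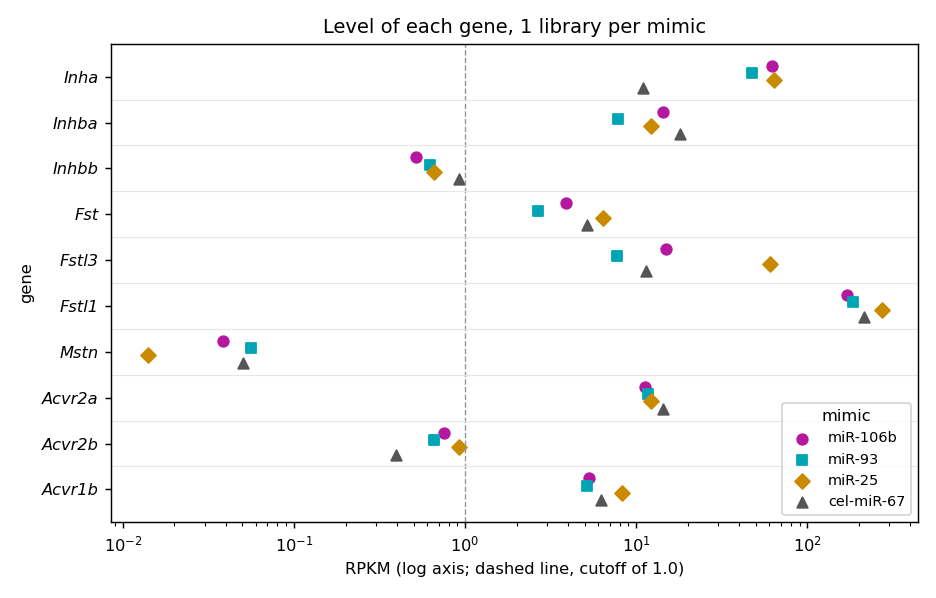
Level of each of the 10 genes in RPKM on a log axis, with 1 point for each of the 4 libraries and a dashed line at 1.0 RPKM. Inha lies between 47.3 and 63.8 RPKM with the 3 mimics and at 11.0 RPKM after cel-miR-67, while Fstl3 stands apart after miR-25 alone, at 60.4 RPKM.

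Inha was higher with all 3 mimics. Its level was 62.4 RPKM after miR-106b, 47.3 RPKM after miR-93, 63.8 RPKM after miR-25 and 11.0 RPKM after cel-miR-67, from 2656, 1848, 2485 and 356 reads. The 3 mimic libraries were therefore high and the control library low, with no mimic library near the control. The ratio to the control was 5.69-fold after miR-106b (95% exact interval 5.09 to 6.37), 4.31-fold after miR-93 (3.84 to 4.84) and 5.81-fold after miR-25 (5.19 to 6.51). These intervals, like all intervals here, cover counting error only, since there is no second library of any mimic. All 3 ratios use the same control library. The summed levels of the marker lists of 6 cell types had log2 ratios to the control between -0.36 and 0.08 after miR-106b, between -0.58 and 0.23 after miR-93 and between -1.33 and 1.45 after miR-25, the last 2 bounds being those of fibroblast and of smooth muscle and pericyte markers, and their part in the level of Inha was not tested. No other gene had a higher ratio after miR-106b, among 11296 genes whose RPKM exceeded 1.0 in both libraries, nor after miR-25, among 11198, and 8 of 11280 genes had a higher one after miR-93. In the control library 70.6% of all genes had a lower RPKM than Inha, against 94.7%, 93.2% and 95.5% after miR-106b, miR-93 and miR-25. Between mimics, which does not involve the control, miR-25 and miR-106b differed by a log2 ratio of 0.03 (95% exact interval -0.05 to 0.11), and miR-93 lay below miR-106b by a log2 ratio of -0.40 (-0.49 to -0.31).

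The beta subunit genes did not share this pattern. Inhba, which encodes the subunit of activin A, had 14.4 RPKM after miR-106b, 7.84 RPKM after miR-93, 12.1 RPKM after miR-25 and 17.9 RPKM after cel-miR-67. All 3 mimic libraries lay below the control, and miR-93 was lowest. The log2 ratio of Inhba to the control was -0.31 after miR-106b (95% exact interval -0.44 to -0.19), short of 1.3-fold, -1.19 after miR-93 (-1.34 to -1.04) and -0.56 after miR-25 (-0.69 to -0.43). After miR-93, 190 of 11280 genes had a lower ratio than Inhba. Although miR-106b and miR-93 have the same seed, the log2 ratio of Inhba between them was -0.88 (-1.03 to -0.73), lower after miR-93. Inhbb, which encodes the subunit of activin B, had 0.517, 0.622 and 0.659 RPKM after miR-106b, miR-93 and miR-25, against 0.919 RPKM after cel-miR-67, from 48, 53, 56 and 65 reads. Because these levels are under 1.0 RPKM, Inhbb entered no count, and its log2 ratios to the control were -0.83 (95% exact interval -1.40 to -0.27), -0.56 (-1.11 to -0.02) and -0.48 (-1.02 to 0.06) in the same order.

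A ratio between genes of the same library does not depend on how the libraries are scaled to each other. The level of Inha was 0.613 times that of Inhba after cel-miR-67 (95% exact interval 0.542 to 0.692), and 4.33 times after miR-106b (4.03 to 4.65), 6.03 times after miR-93 (5.48 to 6.65) and 5.25 times after miR-25 (4.86 to 5.69). The alpha subunit transcript was thus below the activin A subunit transcript in the control library and above it in each mimic library. Taken against both beta subunits together, the level of Inha was 0.583 times their sum after cel-miR-67, and 4.18, 5.59 and 4.98 times after miR-106b, miR-93 and miR-25. The sum of Inhba and Inhbb itself was 18.8 RPKM after cel-miR-67, and 14.9, 8.46 and 12.8 RPKM after miR-106b, miR-93 and miR-25.

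Of the antagonists, Fstl3 differed most between libraries. Its level was 14.99 RPKM after miR-106b, 7.68 RPKM after miR-93, 60.4 RPKM after miR-25 and 11.4 RPKM after cel-miR-67, from 846, 398, 3123 and 490 reads. The library of miR-25 was far above the other three, and that of miR-93 was the lowest. The ratio to the control was 5.30-fold after miR-25 (95% exact interval 4.82 to 5.84), and 1 gene of 11198, Inha, had a higher ratio in that comparison. After miR-106b the log2 ratio of Fstl3 was 0.40 (0.23 to 0.56), just past 1.3-fold, and after miR-93 it was -0.57 (-0.76 to -0.37). Between mimics, the level after miR-25 was 4.03 times that after miR-106b and 7.86 times that after miR-93, and miR-93 lay below miR-106b by a log2 ratio of -0.96 (-1.14 to -0.79). The summed smooth muscle and pericyte markers were also highest after miR-25 and lowest after miR-93. Of these markers, Tagln, Cnn1 and Rgs5 were lowest after miR-93, while Acta2 and Myh11 were lowest after miR-106b and Pdgfrb after cel-miR-67. The part of these markers in the values of Fstl3 was not tested.

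Fst, which encodes follistatin itself, was less abundant and varied less than Fstl3. Its level was 3.90 RPKM after miR-106b, 2.67 RPKM after miR-93, 6.39 RPKM after miR-25 and 5.15 RPKM after cel-miR-67, from 127, 80, 191 and 128 reads. The lowest library was that of miR-93 and the highest that of miR-25, as for Fstl3. The log2 ratio of Fst to the control was -0.40 after miR-106b (95% exact interval -0.77 to -0.04), -0.95 after miR-93 (-1.37 to -0.53) and 0.31 after miR-25 (-0.02 to 0.65), the last short of 1.3-fold. Between mimics, Fst was higher after miR-25 than after miR-106b by a log2 ratio of 0.72 (0.38 to 1.05) and than after miR-93 by 1.26 (0.87 to 1.65). Fstl3 was the more abundant antagonist in each library, at 2.21 times the level of Fst after cel-miR-67, 3.85 times after miR-106b, 2.87 times after miR-93 and 9.45 times after miR-25.

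The level of Fstl3 relative to that of Inhba was 0.636 after cel-miR-67 (95% exact interval 0.570 to 0.709), 1.04 after miR-106b (0.949 to 1.14), 0.980 after miR-93 (0.859 to 1.12) and 4.98 after miR-25 (4.61 to 5.38). For Fst relative to Inhba the values were 0.288, 0.270, 0.341 and 0.527 in the same order of libraries. The antagonists thus stood highest against the activin A subunit after miR-25. Fst and Fstl3 together had 16.5 RPKM after cel-miR-67, 18.9 RPKM after miR-106b, 10.4 RPKM after miR-93 and 66.8 RPKM after miR-25, which was 0.879, 1.26, 1.22 and 5.22 times the sum of Inhba and Inhbb.

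**Figure D2:**
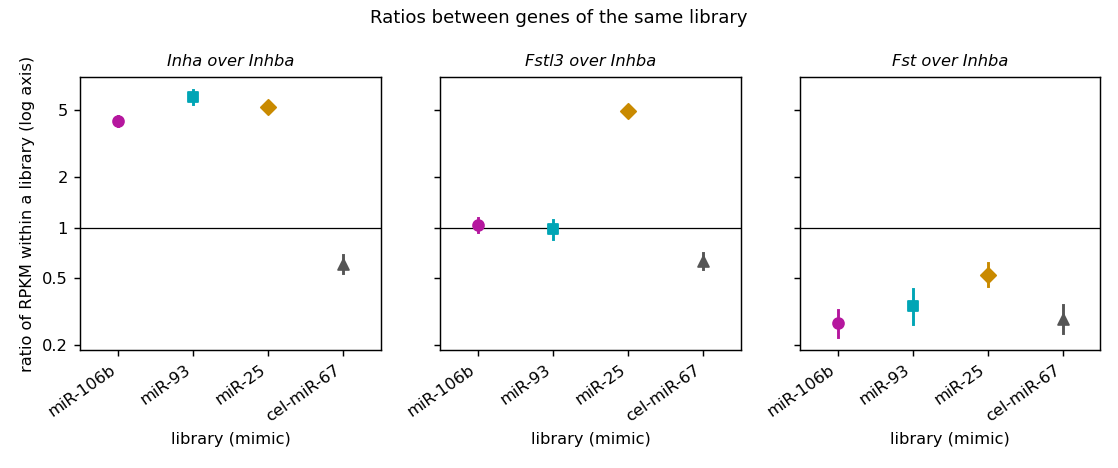
Ratio of RPKM between pairs of genes in each library on a log axis, with vertical bars for 95% exact counting intervals, for Inha over Inhba, Fstl3 over Inhba and Fst over Inhba. Inha over Inhba is 0.613 after cel-miR-67 and between 4.33 and 6.03 with the mimics, and Fstl3 over Inhba is 4.98 after miR-25 and at most 1.04 in the other libraries.

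Fstl1 encodes a secreted glycoprotein with a follistatin domain that is known in the heart as a factor of the epicardium. It had 171 RPKM after miR-106b, 185 RPKM after miR-93, 272 RPKM after miR-25 and 215 RPKM after cel-miR-67, and at least 98.1% of all genes had a lower level in each library. Its library order had miR-25 highest and miR-106b lowest. The log2 ratio of Fstl1 to the control was -0.33 after miR-106b (-0.36 to -0.30), -0.21 after miR-93 (-0.24 to -0.18) and 0.34 after miR-25 (95% exact interval 0.31 to 0.37), all short of 1.3-fold. The RPKM summed over 4 epicardial markers was 18.9, 21.0, 30.7 and 17.8 after miR-106b, miR-93, miR-25 and cel-miR-67, and their part in the level of Fstl1 was not tested. Mstn, which encodes myostatin, had 3, 4, 1 and 3 reads after miR-106b, miR-93, miR-25 and cel-miR-67, which is too few for a fold. Myostatin transcript was therefore near the limit of detection in all 4 libraries.

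Of the 10 genes, Acvr2a differed least between libraries, with its highest level 1.28 times its lowest, against 1.59 times for Acvr1b and 2.34 times for Acvr2b. The type II receptor transcript Acvr2a had 11.2 RPKM after miR-106b, 11.8 RPKM after miR-93, 12.3 RPKM after miR-25 and 14.4 RPKM after cel-miR-67. All 3 mimics lay below the control by less than 1.3-fold, with log2 ratios of -0.35, -0.29 and -0.22, and none of the mimic pairs differed beyond counting error for Acvr2a. Acvr2b, the other type II receptor among the 10 genes, had 0.750, 0.654, 0.921 and 0.394 RPKM after miR-106b, miR-93, miR-25 and cel-miR-67. These levels came from 40, 32, 45 and 16 reads. Acvr2b was under 1.0 RPKM throughout and entered no count. Its log2 ratio to the control was largest after miR-25, at 1.23 (95% exact interval 0.38 to 2.15). The level of Acvr2a was 36.4 times that of Acvr2b after cel-miR-67 (22.3 to 64.1), and 14.97, 18.0 and 13.3 times after miR-106b, miR-93 and miR-25. Acvr1b, the type I receptor of activin, had 5.31 RPKM after miR-106b, 5.17 RPKM after miR-93, 8.23 RPKM after miR-25 and 6.22 RPKM after cel-miR-67. Its level was highest after miR-25, at a log2 ratio of 0.40 to the control (0.26 to 0.55), just past 1.3-fold, against -0.23 after miR-106b and -0.27 after miR-93.

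**Figure D3:**
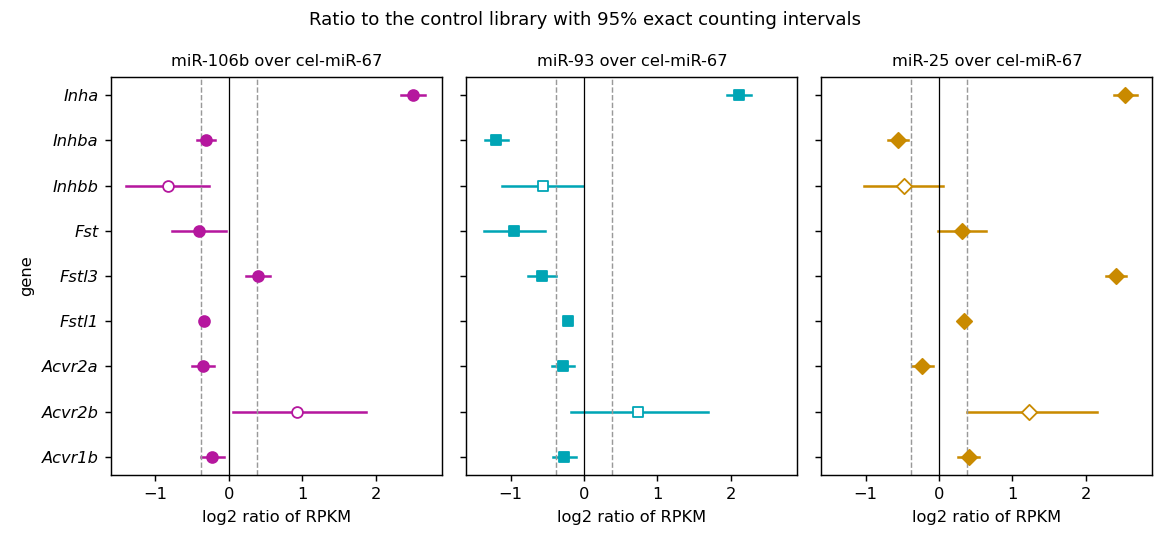
The log2 ratio of RPKM of each mimic over cel-miR-67 for 9 genes, with horizontal bars for 95% exact counting intervals, dashed lines at 1.3-fold and open symbols for genes with a level at or under 1.0 RPKM in either library. Mstn is left out because it had at most 4 reads in a library, and Inha is the gene with filled symbols to the right of the dashed lines in all 3 comparisons, where Acvr2b has open symbols.

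Of the 10 genes, 7 had RPKM above 1.0 in both libraries of each comparison, and Inhbb, Acvr2b and Mstn did not. After miR-106b, 2 of the 7 genes, Inha and Fstl3, were past 1.3-fold higher and 1, Fst, past 1.3-fold lower, beside 11.9% and 12.7% of all genes tested. After miR-93, 1 gene, Inha, was past 1.3-fold higher and 3, Inhba, Fst and Fstl3, past 1.3-fold lower, beside 15.1% and 15.6% of all genes. After miR-25, 3 genes, Inha, Fstl3 and Acvr1b, were past 1.3-fold higher and 1, Inhba, past 1.3-fold lower, beside 19.3% and 22.6% of all genes. Since the genes were chosen from these ratios, nothing is read from the counts. The median log2 ratio of the 7 genes was -0.31 after miR-106b, -0.29 after miR-93 and 0.34 after miR-25, beside medians of all genes between -0.01 and -0.002. When libraries were scaled by the reads on listed genes in place of the library size, the median gene shifted by 0.08, 0.15 and 0.15 on the log2 scale after miR-106b, miR-93 and miR-25, while the share of higher genes among all genes past 1.3-fold went from 48.2% to 64.7%, from 49.2% to 72.3% and from 46.1% to 64.8%. With that scaling, Fst was no longer past 1.3-fold after miR-106b, and Fst and Fstl1 came past it after miR-25, at log2 ratios of 0.46 and 0.49.

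**Figure D4:**
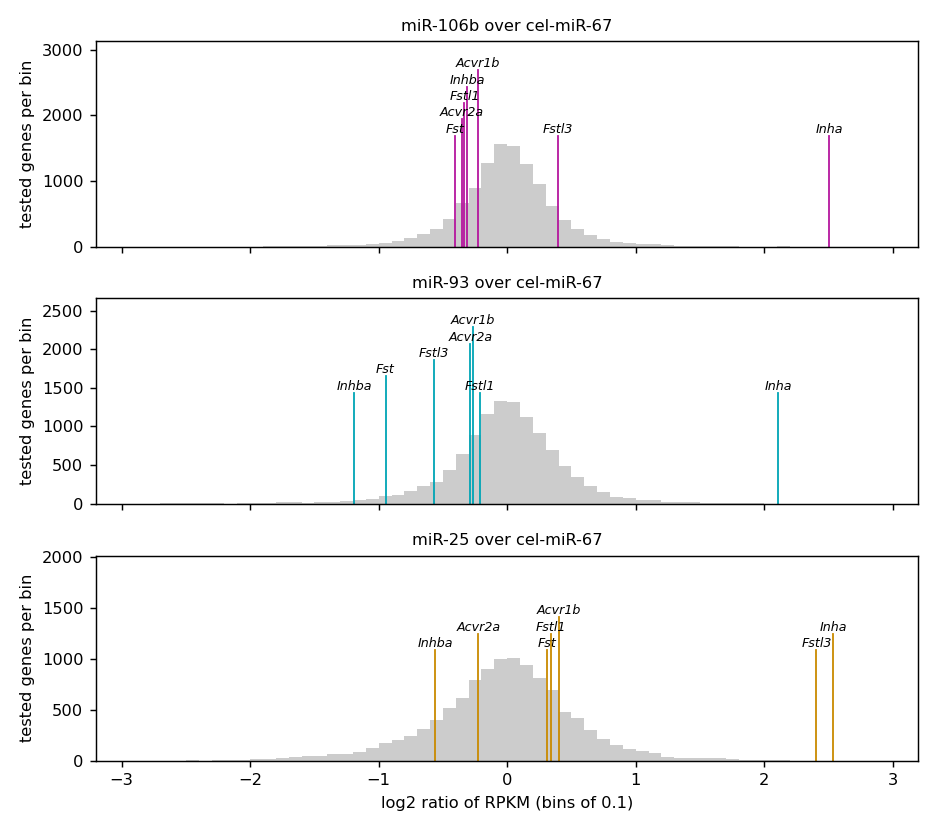
Distribution of the log2 ratio over all genes with RPKM above 1.0 in both libraries (grey bars, number of genes in bins of 0.1) for each mimic over cel-miR-67, with vertical lines for the 7 genes tested. Inha lies at 2.51, 2.11 and 2.54 after miR-106b, miR-93 and miR-25, with Fstl3 at 2.41 after miR-25.

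The comparisons between mimics leave out the control library. Of miR-93 over miR-106b, 0 of the 7 genes were past 1.3-fold higher and 4, Inha, Inhba, Fst and Fstl3, past 1.3-fold lower, beside 7.3% and 8.21% of all genes tested. Of miR-25 over miR-106b, 4 genes, Fst, Fstl3, Fstl1 and Acvr1b, were past 1.3-fold higher and 0 lower, beside 22.1% and 23% of all genes. Of miR-25 over miR-93, 6 of the 7 genes were past 1.3-fold higher and 0 lower, beside 22.1% and 23% of all genes, and Acvr2a was the one short of it, at a log2 ratio of 0.06. The median log2 ratio of the 7 genes was -0.40, 0.63 and 0.63 in these comparisons, beside 0.003, 0.002 and -0.01 for all genes. The last 2 comparisons share the miR-25 library. Of the 3 mimics, miR-93 thus gave the lowest level of Inha, Inhba, Fst, Fstl3 and Acvr1b, and miR-25 the highest level of Inha, Fst, Fstl3, Fstl1, Acvr2a and Acvr1b. Within that order, Inha after miR-25 and after miR-106b, Acvr1b after miR-93 and after miR-106b, and Acvr2a in all mimic pairs did not differ beyond counting error. The log2 ratio of Inha between miR-93 and miR-106b fell short of 1.3-fold, at -0.34, when libraries were scaled by reads on listed genes.

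Other genes of the activin pathway were taken from a list of 58 symbols of ligands, receptors, Smad transducers, processing enzymes, other antagonists and read-out genes, of which 47 were listed, in 48 rows, since Tgfbr1 was listed more than once. After miR-106b, 0 of 35 rows tested were past 1.3-fold higher and 7 past 1.3-fold lower, beside 11.9% and 12.7% of all genes tested, with a median log2 ratio of -0.16. After miR-93 the counts were 5 higher and 12 lower of 34, beside 15.1% and 15.6%, with a median of -0.28. After miR-25 they were 7 and 7 of 35, beside 19.3% and 22.6%, with a median of 0.002. The medians of all genes tested are those given above.

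Among genes that TGF-beta and activin signalling are known to induce, Pmepa1, which encodes a feedback inhibitor of Smad signalling, had log2 ratios of -0.999, -0.84 and -0.33 after miR-106b, miR-93 and miR-25, the last short of 1.3-fold. Ctgf, which encodes a matricellular protein and was past 1.3-fold only after miR-93, had log2 ratios of -0.34, -0.92 and -0.04. Relative to the control, Pmepa1 was lowest after miR-106b and Ctgf was lowest after miR-93. Cdkn1a, which encodes the cell cycle inhibitor p21, had log2 ratios of 0.04, -0.45 and 1.71 after miR-106b, miR-93 and miR-25. Trim63, which encodes a muscle ubiquitin ligase, had log2 ratios of -0.15, 0.04 and -0.81. After miR-25, Cdkn1a was thus past 1.3-fold higher and Trim63 past 1.3-fold lower.

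Among regulators, Furin, which encodes a protease that cleaves activin precursors, had log2 ratios of -0.40, -0.75 and 0.31 after miR-106b, miR-93 and miR-25, the last short of 1.3-fold. Bambi, which encodes a decoy receptor that lacks a kinase domain, had 0.24, 0.76 and -0.43, past 1.3-fold higher after miR-93 and lower after miR-25. The transcriptional repressors Skil and Tgif1 differed in direction after miR-25, at log2 ratios of 0.78 and -0.85. After miR-106b and miR-93, Skil had log2 ratios of -0.16 and -0.31 and Tgif1 -0.31 and -0.43. The distant ligand Gdf15, a stress-induced cytokine, had log2 ratios of 0.12, -0.11 and 0.91 after miR-106b, miR-93 and miR-25.

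**Figure D5:**
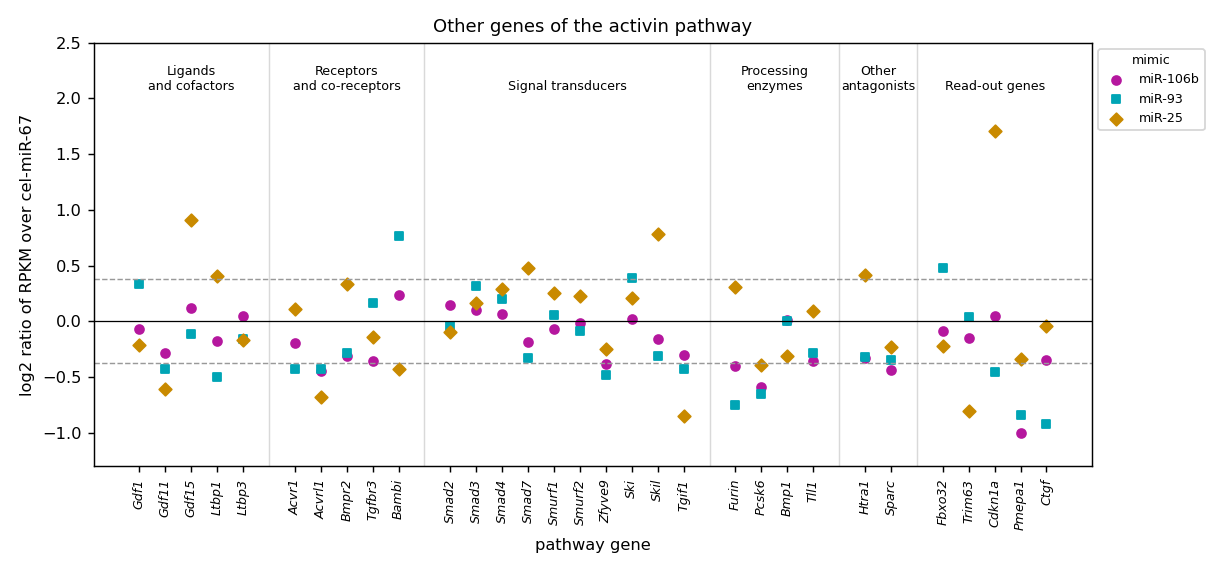
The log2 ratio of RPKM of each mimic over cel-miR-67 for 31 of the 32 genes of the pathway list that were listed once and had RPKM above 1.0 in all comparisons, grouped by role, with dashed lines at 1.3-fold. Cdkn1a has the largest ratio, 1.71 after miR-25, and Pmepa1 the lowest, -0.999 after miR-106b.

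The genes most like the members in pattern were those with the smallest distance between log2 RPKM values, each centred on its gene's mean over the 4 libraries, among 5558 genes with RPKM above 1.0 in all libraries and above 10 in at least 1. For Inha these were Mrps12, Tstd3 and Cers5, at distances of 0.651, 0.832 and 1.02. Mrps12, which encodes a mitochondrial ribosomal protein, had 4.66 RPKM after cel-miR-67, against 19.7, 18.6 and 15.2 RPKM after miR-106b, miR-93 and miR-25. The distances for Inhba were far smaller, at 0.065 for Ppp1r15a, 0.0809 for Cryab and 0.106 for RT1-T24-4. Fst was closest to Msn, Rasl11b and Sgms1, at 0.108, 0.113 and 0.152. For Fstl3 the closest were Cdkn1a at 0.636, Scrn1 at 0.640 and Cnn1, which is among the smooth muscle markers, at 0.6997. With 4 libraries these distances describe likeness and no more.

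The genes next to Inha and Fstl3 in RefSeq order (GRCr8) were looked up after the values had been seen, and none of them overlapped the member. Of the neighbours of Inha with levels above 1.0 RPKM, Obsl1 had log2 ratios of 0.47, 0.54 and 0.19 after miR-106b, miR-93 and miR-25, Stk11ip had -0.01, 0.04 and 0.84, and Slc4a3 had -0.38, -0.01 and 1.09. Tmem198 lay under 1.0 RPKM. Beside Fstl3, Palm had log2 ratios of 0.54, 0.85 and 0.72 and Rnf126 -0.22, -0.26 and -0.36. Prss57, the nearest neighbour of Fstl3, was not listed, and Fgf22 lay under 1.0 RPKM after cel-miR-67, so neither was compared. The ratios of Inha were thus above those of these 3 neighbours with each mimic, and that of Fstl3 after miR-25 was above those of Palm and Rnf126.

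Promoter sequences from RefSeq (GRCr8) matched 8 of the 10 members, not Fst and Mstn. The promoter of Inha is shown because this gene was high with all 3 mimics and because, in gonadal cells, its promoter is known for a cAMP response element and a GATA site. The 250 bases before the start of Inha (chr9:84442859-84443108, plus strand, 58.4% G and C) are printed with matches to AGATAA and to TGACG, the latter on the other strand, in capitals.
Inha: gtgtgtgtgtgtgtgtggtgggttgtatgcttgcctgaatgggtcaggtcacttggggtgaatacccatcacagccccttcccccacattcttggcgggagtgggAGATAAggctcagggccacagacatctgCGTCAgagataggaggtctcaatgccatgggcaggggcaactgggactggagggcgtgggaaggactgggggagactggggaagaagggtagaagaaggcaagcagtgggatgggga
The match to AGATAA, which GATA factors are known to bind, lay 145 to 140 bases before the start, and that to TGACG, the core of a cAMP response element, 117 to 113 bases before it. On either strand, AGATAA was found in 10.3% of 33469 promoters of the same length and in 1 of 8 members, Inha. TGACG was found in 18.2% of the promoters and in 2 of 8 members, Inha and Acvr2a. The full cAMP response element TGACGTCA (1.59% of promoters), which contains TGACG, the AP-1 motif TGAGTCA (4.05%) and the SMAD palindrome GTCTAGAC (0.173%) were in none of the 8 members' windows. The window of Fstl3, at 68.8% G and C, held none of the 5 motifs.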

How the data were processed

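RNA sequencing libraries of neonatal rat cardiomyocyte cultures, 1 for each of 4 mimics, were analysed. According to the methods, the authors checked reads with FASTQC, trimmed adaptors with Cutadapt, aligned the reads with STAR (2.7 in the submitters' processing notes) to Rnor 6.0, and made the deposited RPKM values from rounded gene counts with the rpkm function of edgeR. The program that counted reads is not given in the sources used here. The 4 tables of single samples were identical to the table of the series.

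RPKM ratios between 2 libraries took no pseudocount, and a gene was tested where both values lay above 1.0 and counted where the ratio passed 1.3-fold. With 1 library per mimic there is no p-value. Whole reads were recovered for 15731 of 15731 genes, giving back 100% of values within 1e-06, and used only for 95% Clopper-Pearson intervals. Read numbers were the smallest whole ones that gave back the values with a whole gene length. A factor shared by a gene's length and its reads in every library would go unseen. A check on simulated data came first. The depth on listed genes ran from 15175185 reads (cel-miR-67) through 16460108 (miR-25) and 16520057 (miR-93) to 18797234 (miR-106b), which was between 60.4% and 66.9% of the recovered library sizes. Samples were grouped by the treatment label, and table columns were matched to samples by title. A symbol was listed more than once for 176 names.

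The members and lists were chosen with earlier results of these data known. Named were all members, the 10 pathway genes of largest absolute log2 ratio past 1.3-fold (1 of them is not reported here), and the 3 genes most like each of Inha, Inhba, Fst and Fstl3. Alternatives were other cutoffs, pseudocounts of 0.1 and 1, and other scalings. The tools were matplotlib 3.10.9, pandas 2.3.3, scipy 1.17.1, numpy 2.4.6 and Python 3.11.15. Ctgf and Ccn2, both in the pathway list, name the same gene. No gene in this report has a coordinate on Rnor 6.0, since no annotation of that build was used here.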

Additional observations from a re-analysis of the deposited data

How the results depend on the processing

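No paired analysis was possible because the labels give no replicate numbers and each mimic has 1 library. The log2 ratios of the 7 genes tested in 6 comparisons made 42 values, each computed under 5 settings of pseudocount and scaling. Of these 210 values, 200 moved by less than the counting interval and 10 by more, and 1 changed sign, that of Acvr1b between miR-93 and miR-106b, which was short of 1.3-fold. In 8 of them the side of 1.3-fold changed. A pseudocount of 1 brought Fst (-0.33) and Fstl3 (0.37) after miR-106b and Acvr1b (0.35) after miR-25 short of it, the upper quartile did so for Fst after miR-106b, and scaling to listed reads accounted for the other 4. The count of members past 1.3-fold higher with miR-106b went from 2 to 1 under a 1.5-fold cutoff, a 2-fold cutoff and a pseudocount of 1. It went to 3 with no expression cutoff. The count lower with miR-106b went from 1 to 3 with no expression cutoff and to 0 under the 1.5-fold and 2-fold cutoffs, a pseudocount of 1, and scaling to listed reads or the upper quartile. With miR-93, the count higher went from 1 to 2 with no expression cutoff. The count lower with miR-93 went from 3 to 2 under the 1.5-fold cutoff, to 1 under the 2-fold cutoff and to 4 with no expression cutoff. With miR-25, the count higher went from 3 to 5 with scaling to listed reads and to 4 with no expression cutoff. It went to 2 under the 1.5-fold cutoff, the 2-fold cutoff and a pseudocount of 1. The count lower with miR-25 went from 1 to 3 with no expression cutoff and to 0 under the 1.5-fold and 2-fold cutoffs. The higher pathway genes with miR-93 went from 5 to 3 without symbols listed more than once, since that setting leaves out both rows of Tgfbr1. The lower pathway genes with miR-106b went from 7 to 6 when ratios were centred on the median gene tested. At these depths Mstn, with at most 4 reads, allowed no ratio. A search for seed matches in the transcripts was not run, as no genome of the build was used here.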
